A study of Mus musculus with 32 samples.

Results

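Accessible chromatin was compared in resident type 1 conventional dendritic cells (cDC1) labelled as lacking or carrying Ifngr1, a receptor gene for interferon-γ (IFN-γ). The libraries were chosen by their labels as the cDC1 of 2 groups, and they made up 6 of the 32 libraries of the series. The Cre-positive cells came from mice with the genotype CD11cCREpos/IFNgr1flfl, in which a Cre recombinase driven by the CD11c (Itgax) promoter acts on floxed Ifngr1 alleles (3 libraries). The Cre-negative cells came from CD11cCREneg/IFNgr1flfl mice, which carry the same floxed alleles without the recombinase (3 libraries). All cells were sorted from skin-draining lymph nodes, and open DNA was mapped by Omni-ATAC-seq, which uses the enzyme Tn5 to cut and tag accessible chromatin. The same 2 genotypes were profiled in cDC2 and in the migratory subsets migDC1, migDC2 and DN migDC (22 libraries), and migDC2 were also profiled in germline Ifngr1 knockout and wild-type mice. The labels name no stimulus, age or sex. They do not say whether replicates came from separate mice, so p-values measure the spread between these libraries. They also do not say whether different subsets came from the same mice, and p-values over several subsets are too small if they did. CD11c is made by many myeloid cells besides cDC1, so the deletion is not restricted to cDC1 in these mice.

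IFN-γ binds a receptor made of IFNGR1 and IFNGR2. The kinases JAK1 and JAK2 then carry the signal on to GAS elements in the DNA, which switch on Irf1 early and then a wider set of genes for antigen presentation and defence. Resident cDC1 are the lymph node cells that take up dead cells and present their antigens to CD8 T cells, and they depend on the transcription factors IRF8 and BATF3.

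Each library was deposited as 1 list of called peaks, so a region is either called or not called in a library, and the authors' peak signal serves to rank peaks within a list. A region is a stretch of 100 bp or more in which 3 or more of the 32 lists hold a peak. It is assigned to the protein-coding gene it overlaps or lies nearest to, within 50 kb. Read counts are not part of the lists, so the depth behind each value is unknown. The Cre-positive libraries held 68217, 49815 and 57483 autosomal peaks, and the Cre-negative libraries held 63974, 64816 and 61940. The means were 58505 ± 9243 and 63577 ± 1479 peaks (SD, n = 3 each), a difference of -5072 peaks. The exact permutation test gave p = 0.4 (all such tests are two-sided, and 0.1 is the smallest p for 3 against 3). The covered length was 43.7 ± 7.5 Mb in Cre-positive and 43.5 ± 8.3 Mb in Cre-negative libraries (exact permutation p = 1). A pair of libraries stood apart. Cre-positive 2 had the shortest list. Cre-negative 2 had narrow peaks, with a median width of 389 bp against 533 to 589 bp in the other 5 libraries. Its region set had a Jaccard similarity of 0.725 to 0.748 with each of the other 5, and 8.39% of its peaks lay outside the consensus regions, against 0.106% to 4.4% in the others. Pairs of the same genotype were not measurably closer than other pairs: the mean Jaccard similarity was 0.79 for pairs of the same genotype and 0.801 for pairs of different genotypes (exact permutation p = 0.6). Lists were therefore also cut to their 49815 strongest peaks (equal length), and results that rest on Cre-negative 2 are given without it.

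The chromatin carried marks of cDC1, at some marker genes more clearly than at others. All 6 regions assigned to Xcr1, the chemokine receptor that defines these cells, were called in each Cre-positive library. In the Cre-negative libraries 6, 5 and 6 were called. Xcr1 set cDC1 little apart from cDC2, whose libraries called 4 or 5 of the 6. At Clec9a, another cDC1 marker, 3 or 4 of 4 regions were called in cDC1 and 3 in each cDC2 library. Of 6 regions at Cd8a, which marks resident cDC1 in the mouse, 6, 5 and 4 were called in Cre-positive and 6, 3 and 6 in Cre-negative libraries, against 0 in all 6 cDC2 libraries. At Wdfy4, which cross-presentation requires, 38 to 55 of 57 regions were called in cDC1 and 4 to 15 in cDC2. At the T cell gene Cd3e, 4, 3 and 2 of 5 regions were called in Cre-positive and 4, 2 and 4 in Cre-negative libraries.

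The Ifngr1 locus itself (mm10, chromosome 10, 19591949 to 19610229) stayed open in both genotypes. Of its 16 regions, 14, 13 and 15 were called in Cre-positive and 15, 13 and 15 in Cre-negative libraries. The promoter region had a within-list rank of 97.0, 97.8 and 97.6 in Cre-positive and 96.8, 96.9 and 96.9 in Cre-negative libraries. The Cre-positive values all lay above the Cre-negative ones, by less than 1 percentile point on average. This rank is the percentile of its signal among the 40180 autosomal regions called in all 6 cDC1 lists. The difference did not pass the test (limma, effect 0.09 ± 0.078 SE on the normal score of the rank, adjusted p = 0.974). Such an order is common: of 34953 regions ranked at equal length, 4.79% lay higher in every Cre-positive cDC1 library and 3.71% lower. The labels do not say which exon is floxed, so these calls do not check the deletion.

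The promoter of Irf1, a transcription factor gene that IFN-γ induces early, ranked lower in Cre-positive cells over the 5 subsets. Its region spans chr11:53768133-53772185 and covers the start of the gene. Among the 22964 regions called in all 28 lists of the floxed mice, it ranked at the 91.1, 89.4 and 91.1 percentile in Cre-positive cDC1, against 95.0, 92.5 and 93.8 in Cre-negative cDC1. The 3 Cre-positive libraries thus lay below all 3 Cre-negative ones, with means of 90.5 ± 1.0 and 93.7 ± 1.2 (SD, n = 3 each). As background, of 34953 regions ranked at equal length in cDC1, 3.71% lay lower in every Cre-positive library and 4.79% higher. In cDC1 alone this difference did not pass the test (limma, effect -0.20 ± 0.087 SE, adjusted p = 0.974). Over all 5 subsets, with the subset as a block, it passed (effect -0.24 ± 0.033 SE, adjusted p = 0.000719). The region was lower in every Cre-positive than in every Cre-negative library within each of the 5 subsets. This order is read from the same ranks as the test and adds no separate support. The share of all 22964 regions with such an order is not given. In the 4 subsets other than cDC1 the effect was -0.24 ± 0.038 (limma adjusted p = 0.0155), and the difference of the cDC1 effect from it did not pass (limma interaction 0.02 ± 0.083, adjusted p = 0.994). In sorted bulk cells, fewer cells with an open promoter and less openness per cell cannot be told apart.

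The window of 250 bases before and 50 after the start of Irf1 is shown because it lies inside this region and holds the letters of a GAS element, TTCNNNGAA, which are in capitals. The sequence is that of RefSeq for GRCm38.p6, at chr11:53769764-53770063 on the + strand, and the match starts at base 161 of the window. RefSeq gives a second Irf1 start inside the same region, whose window (53770223 to 53770522) held 0 GAS and 0 ISRE matches. Of 20084 such windows, searched on both strands, 7.78% held a GAS match, and 6.47% of the 10788 windows that lay in regions called in all 6 cDC1 lists did.
Irf1: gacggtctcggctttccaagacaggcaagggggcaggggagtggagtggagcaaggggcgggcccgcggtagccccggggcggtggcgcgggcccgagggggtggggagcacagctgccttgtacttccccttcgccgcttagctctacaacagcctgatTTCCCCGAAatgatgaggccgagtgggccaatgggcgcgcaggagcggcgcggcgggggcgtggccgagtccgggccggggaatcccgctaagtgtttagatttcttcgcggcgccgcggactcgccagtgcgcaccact

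Outside the promoter, no Irf1 region was called in more Cre-positive libraries. Of 14 regions called in any cDC1 library, 6 were called in fewer Cre-positive than Cre-negative libraries, 0 in more and 8 in all 6. Across cDC1 as a whole, 19.7% of the 67835 called regions were found in fewer and 11.4% in more Cre-positive libraries, and both shares move with list length. The number of Irf1 regions called was 12, 9 and 10 in Cre-positive and 11, 14 and 12 in Cre-negative libraries, and these ranges overlapped. At equal length it was 10, 9 and 9 in Cre-positive and 11, 12 and 11 in Cre-negative libraries, which did not overlap. At equal length 0.846% of 6852 genes with at least 3 regions had fewer calls in every Cre-positive library and 0.992% had more. Of the 6 regions, 3 were in the gene body and 3 lay 6883 to 21877 bp beyond the gene. The genotypes differed by 1 library at each of the 6. Cre-negative 2, the library with narrow peaks, called all 14 and was the single library with a call at 2 of the 6. Without it, 4 of 12 regions were found in fewer and 0 in more Cre-positive libraries. In the other subsets the mean number of Irf1 regions was 10 ± 2.0 in Cre-positive and 12.3 ± 2.5 in Cre-negative cDC2, and it was 16 ± 2.0 in Cre-positive and 17.3 ± 1.5 in Cre-negative DN migDC (SD, n = 3 each). It was 20.3 ± 0.58 in Cre-positive and 21 in each Cre-negative migDC2 library (SD, n = 3 each). In migDC1 the order was the opposite, with 19.5 ± 2.1 in Cre-positive and 17.5 ± 4.9 in Cre-negative libraries (SD, n = 2 each).

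**Figure D1:**
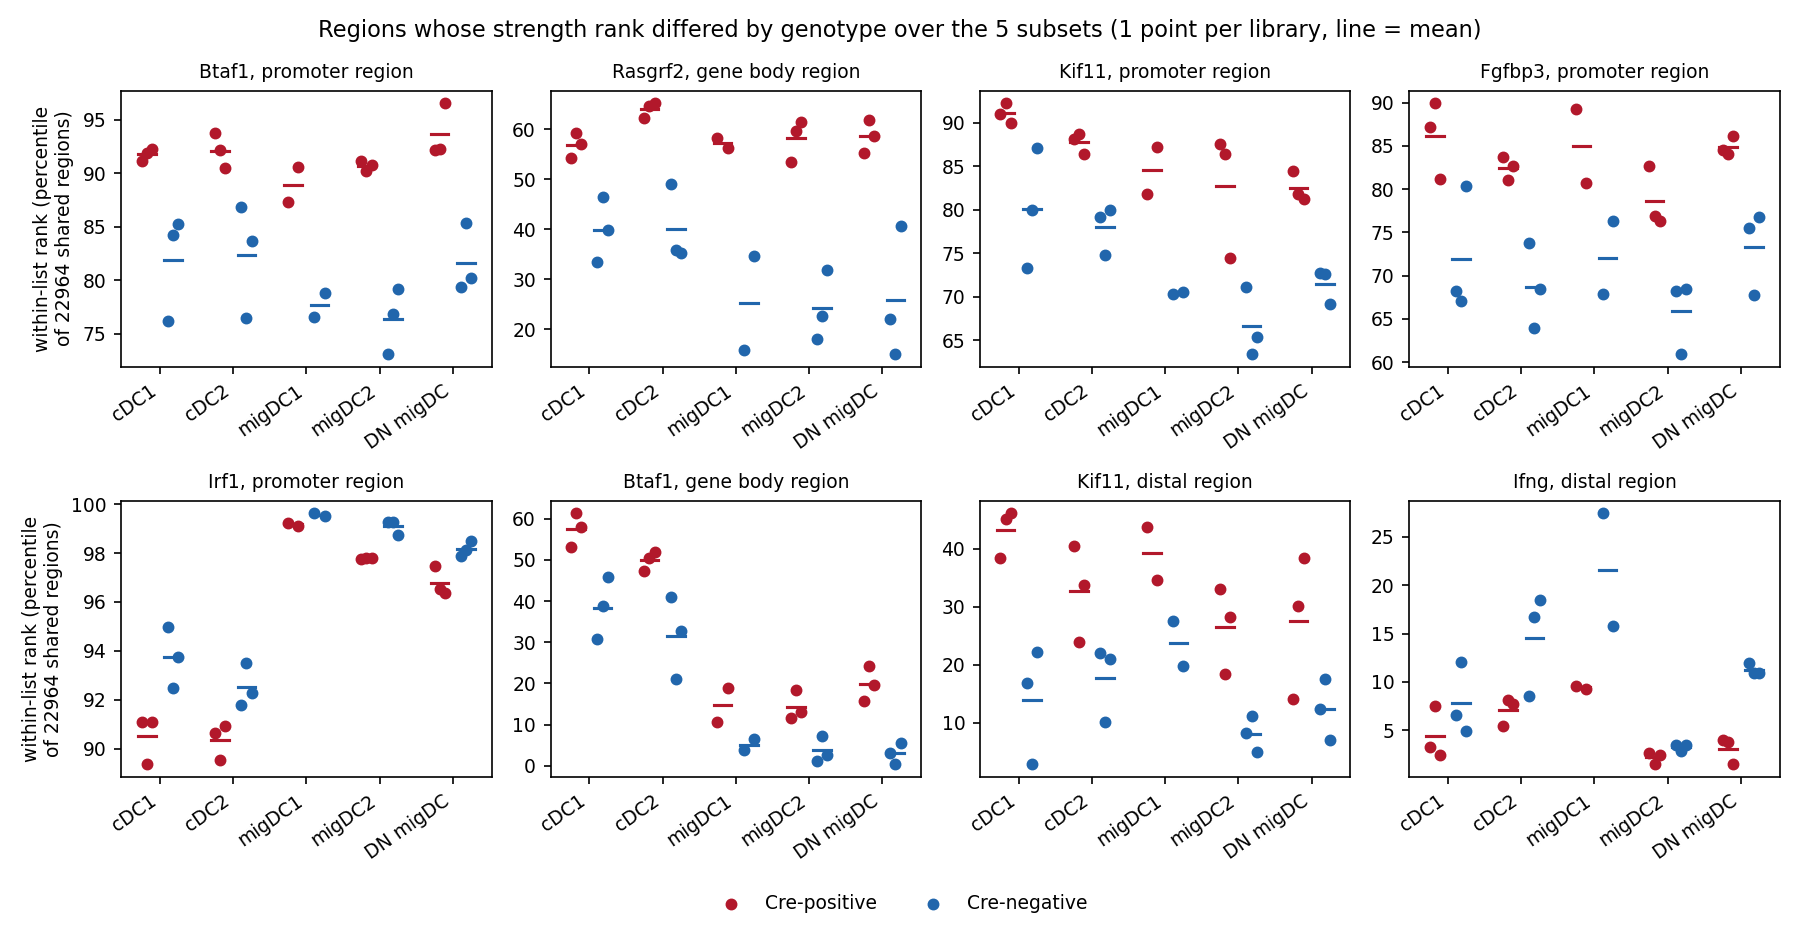
Within-list rank of the 8 regions that passed over all 5 subsets, as a percentile of the 22964 regions called in all 28 lists, with 1 point per library and a line at the mean, Cre-positive to the left of Cre-negative in each subset. The Irf1 promoter lies lower in Cre-positive libraries of each subset, the 6 regions of Btaf1, Kif11, Fgfbp3 and Rasgrf2 lie higher, and the Ifng region overlaps between genotypes in cDC1.

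Over the 5 subsets 8 of 22964 regions passed by rank (0.0348%), 6 of them higher (0.0261%) and 2 lower (0.00871%) in Cre-positive cells. The order of their libraries by genotype, given below, comes from the same ranks as this test and adds no separate support. In cDC1 alone 0 of 40180 passed (0%), with 1039 at an unadjusted limma p under 0.05 and a smallest adjusted p of 0.974. Without Cre-negative 2, 4 regions passed in cDC1 alone, at Cd24a, Esyt2, Kctd12 and Ppp1r15b, and 0 passed when any of the other 5 libraries was left out. No region's cDC1 effect passed the test against that of the other subsets: 0 of 22964 passed the interaction (0%), 766 had an unadjusted p under 0.05, and the smallest adjusted p was 0.118. In the other 4 subsets 10 of 24390 passed (0.041%), 6 higher (0.0246%) and 4 lower (0.0164%). An exact permutation of genotype within these 4 subsets called 0, with 1230 at p under 0.05. Its smallest possible p of 4.17e-05 was reached by 11 regions and became 0.0924 after adjustment.

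Of the 6 higher regions, 5 lay together on chromosome 19, between Fgfbp3 and Kif11. Fgfbp3 encodes a carrier protein of fibroblast growth factors, Btaf1 an ATPase that removes the TATA-binding protein from promoters, and Kif11 the kinesin that separates the poles of the mitotic spindle. The Btaf1 promoter region (chr19:36925075-36927444) ranked at 91.2, 91.9 and 92.3 in Cre-positive and 76.2, 84.2 and 85.3 in Cre-negative cDC1. Its groups did not overlap in any of the 5 subsets (limma over 5 subsets, effect 0.54 ± 0.051, adjusted p = 2.94e-06). The Kif11 promoter region (chr19:37374863-37377151) ranked at 91.0, 92.3 and 89.9 in Cre-positive and 73.3, 80.0 and 87.1 in Cre-negative cDC1 (effect 0.45 ± 0.052, limma adjusted p = 4.41e-05). The Fgfbp3 promoter region (chr19:36918332-36920191) ranked at 87.2, 90.0 and 81.2 in Cre-positive and 68.2, 67.0 and 80.4 in Cre-negative cDC1 (effect 0.44 ± 0.054, limma adjusted p = 0.000107). At both, the Cre-positive libraries lay above the Cre-negative ones in every subset. In cDC1 the nearest pair of values at Fgfbp3 was 81.2 in Cre-positive 3 and 80.4 in Cre-negative 3.

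The other 2 regions of this stretch were weaker and not at a promoter. A region inside Btaf1 (36931982 to 36933027) ranked at 53.1, 61.3 and 57.9 in Cre-positive and 30.8, 38.7 and 45.8 in Cre-negative cDC1 (effect 0.72 ± 0.11, limma adjusted p = 0.00211). A region 5481 bp from Kif11 (37369871 to 37370900) ranked at 38.5, 45.2 and 46.1 in Cre-positive and 16.8, 2.8 and 22.2 in Cre-negative cDC1 (effect 0.68 ± 0.11, limma adjusted p = 0.00831). Its genotypes overlapped in DN migDC. Between positions 36905831 and 37420026, 10 regions were tested, 7 had an effect above 0 and 5 passed. This stretch was delimited by the genes whose regions passed, so its passes follow from that choice. In the 1 Mb before it 8 regions were tested and 0 had an unadjusted limma p under 0.05. In the 1 Mb after it 16 were tested and 0 did. Over all 22964 regions 1198 did, so 0 among so few regions does not set the flanks apart from other windows. In cDC1 alone, 9 of the stretch's 35 called regions were found in more and 3 in fewer Cre-positive libraries. Over all regions called in cDC1, 11.4% were found in more and 19.7% in fewer. Fgfbp3 had 7, 6 and 5 regions called in Cre-positive cDC1 and 3 in each Cre-negative library. It was among 3 genes of 7776 (0.0386%) with more calls in every Cre-positive library. Its count was 6, 6 and 4 against 3, 3 and 3 at equal length, where 68 of 6852 genes (0.992%) had more calls in every Cre-positive library.

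The start windows of the 3 genes are shown with the letters of GAS and of the interferon-stimulated response element ISRE, GAAANNGAA, in capitals. They come from RefSeq GRCm38.p6, at chr19:36919550-36919849 on the - strand for Fgfbp3, chr19:36925829-36926128 on the + strand for Btaf1 and chr19:37376132-37376431 on the + strand for Kif11. The Btaf1 window held 1 ISRE match on the opposite strand, at base 101, and the other 2 windows held neither motif. Of all windows, 8.08% held an ISRE match, and 6.76% of those in regions called in all 6 cDC1 lists did. A match describes letters and not a bound site.
Fgfbp3: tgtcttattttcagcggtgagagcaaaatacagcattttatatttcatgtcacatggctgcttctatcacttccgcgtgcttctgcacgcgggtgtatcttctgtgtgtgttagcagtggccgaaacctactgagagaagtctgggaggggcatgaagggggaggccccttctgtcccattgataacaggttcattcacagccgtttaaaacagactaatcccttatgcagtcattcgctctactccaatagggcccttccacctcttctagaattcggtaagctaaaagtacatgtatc
Btaf1: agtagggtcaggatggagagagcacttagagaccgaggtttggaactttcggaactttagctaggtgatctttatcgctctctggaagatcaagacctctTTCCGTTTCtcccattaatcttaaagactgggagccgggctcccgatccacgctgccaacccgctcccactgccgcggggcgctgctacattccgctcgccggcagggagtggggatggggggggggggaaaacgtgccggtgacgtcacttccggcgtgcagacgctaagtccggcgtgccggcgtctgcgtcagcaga
Kif11: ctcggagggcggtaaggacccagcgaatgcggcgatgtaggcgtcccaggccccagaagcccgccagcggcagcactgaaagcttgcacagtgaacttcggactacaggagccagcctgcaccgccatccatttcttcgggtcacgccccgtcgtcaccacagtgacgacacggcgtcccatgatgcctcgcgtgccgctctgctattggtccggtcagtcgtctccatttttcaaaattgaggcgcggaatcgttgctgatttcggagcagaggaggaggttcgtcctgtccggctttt

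Germline knockout migDC2, whose labels name no Cre, were set beside these values. There the ranks are percentiles of the regions called in all 32 lists. The Btaf1 promoter ranked at 89.0 and 88.9 in knockout and 60.7 and 76.8 in wild-type migDC2. Kif11 ranked at 84.4 and 80.6 in knockout and 59.3 and 78.7 in wild-type, and Fgfbp3 at 84.2 and 78.9 in knockout and 57.4 and 69.5 in wild-type migDC2. All 3 promoters lay higher in both knockout than in both wild-type libraries. The Irf1 promoter ranked at 97.2 and 98.3 in knockout and 98.0 and 98.5 in wild-type migDC2, which overlap. With 2 against 2 libraries no test was made. Whether Ifngr1 loss or another difference between the mice gives these ranks was not tested.

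The remaining 2 regions were at Rasgrf2 and near Ifng. Rasgrf2 encodes an exchange factor that activates Ras. A region in its gene body (chr13:92030279-92031224) ranked at 54.2, 59.2 and 57.0 in Cre-positive and 33.5, 46.4 and 39.8 in Cre-negative cDC1, and the genotypes were apart in each of the 5 subsets (effect 0.74 ± 0.081, limma adjusted p = 2.38e-05). Its difference of 16.9 percentile points in cDC1 was the smallest of the 5 subsets, where the others ranged up to 34.1 (limma interaction -0.40 ± 0.18, adjusted p = 0.991). In germline migDC2 it ranked at 13.3 and 13.6 in knockout and 17.1 and 12 in wild-type libraries. The second region that ranked lower, besides Irf1, lay 21452 bp from Ifng, the gene of IFN-γ itself (chr10:118418869-118419593). In cDC1 it was among the weakest shared regions, at 3.3, 7.5 and 2.5 in Cre-positive and 6.6, 12.1 and 4.9 in Cre-negative libraries, and the genotypes overlapped. Its pass over 5 subsets (effect -0.41 ± 0.074, limma adjusted p = 0.026) was lost in 13 of 28 fits that left out 1 library, with limma adjusted p up to 0.0684. These were the fits without cDC1 Cre-positive 1 or 3 or Cre-negative 2, cDC2 Cre-positive 1 or Cre-negative 2 or 3, migDC1 Cre-positive 1 or 2 or Cre-negative 1, migDC2 Cre-positive 2, or any of the 3 DN migDC Cre-negative libraries.

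Most regions called in cDC1 were shared by both genotypes. Of the 67835 autosomal regions called in any of the 6 libraries, with the surroundings of Itgax left out, 40180 were called in all 6. A region called in 3 of 3 libraries of one genotype and 0 of 3 of the other is described as separated. No such region can pass a test, since 3 against 3 gives an exact p of 0.1 at best. In Cre-positive libraries alone 19 regions were separated (0.028%), and in Cre-negative libraries alone 157 (0.231%). At equal length the counts were 119 (0.203%) and 125 (0.214%) of 58502, so the excess in Cre-negative libraries was not seen there, and only 5 and 4 regions were the same as with full lists. Of the 157 regions, 78 were called in no library and 55 in 1 library at equal length. The count of 157 was 2046 without Cre-positive 1, 476 without Cre-negative 3, 377 without Cre-negative 2 and 262 without Cre-negative 1. The count of 19 was 262 without Cre-positive 2, 89 without Cre-negative 1, 82 without Cre-negative 3 and 43 without Cre-positive 3. Leaving out a library loosens the rule to 2 against 3 libraries, so these counts can only rise. The 19 and the 157 were kept each time, and the size of the rise differed by library.

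**Figure D2:**
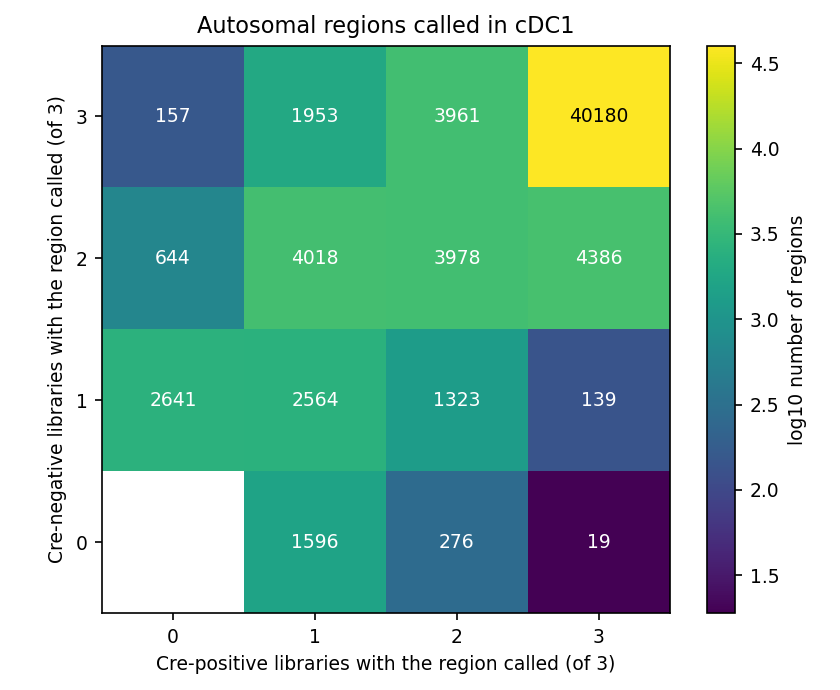
Number of autosomal regions by how many of the 3 Cre-positive (x axis) and 3 Cre-negative libraries (y axis) called them, with colour giving the log10 of the number. The corner called in all 6 holds 40180 regions, and the corners called in a single genotype hold 19 and 157.

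Separated regions were narrow and weak. Their median width was 396 bp for those called in Cre-positive and 298 bp for those called in Cre-negative libraries, against 653 bp for all regions called in cDC1. Their median strength percentile was 15.0 for Cre-positive and 12.4 for Cre-negative ones, against 41.4 overall. Regions called in any 3 of the 6 libraries, whatever the genotype, had a median width of 334 bp and a strength percentile of 14.8. Of the 157 regions, 83 were in gene bodies, 45 distal, 16 at gene ends and 13 far from any gene. Of the 157, 20 were called in all 16 migratory libraries of the floxed mice, and 15 of these in no cDC2 library. As background, of the 67835 regions 1.86% were called in all 16 migratory and no cDC2 library, against 9.55% of the 157 and 2.77% of the regions called in 3 of 6. Over all 4420 regions open in all migratory and no cDC2 library, 23.8%, 13.0% and 16.3% were called in Cre-positive cDC1 and 22.6%, 16.6% and 22% in Cre-negative cDC1. At equal length these shares were 13.9%, 13.0% and 13.2% in Cre-positive and 15.2%, 10.2% and 15.5% in Cre-negative cDC1, and they overlapped.

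The same regions were read in the other subsets, whose libraries had not chosen them. Of the 19, 9 were called in more and 3 in fewer Cre-positive libraries there, and 7 were equal, 5 of them called in no library there. Of the 157, 34 were called in more and 37 in fewer Cre-positive libraries, and 86 were equal, 42 of them called in no library there. Among the 101 that could be tested 0 passed the exact conditional test with the subset as strata, and 0 had an unadjusted p under 0.05. Over all regions 0 of 46771 passed (0%), with 90 at an unadjusted p under 0.05 and a smallest p of 0.000417. With cDC1 included 0 of 60232 passed and 151 had an unadjusted p under 0.05. Separated regions of the same direction were shared with cDC1 at 1 region in cDC2, 2 in migDC1 and 1 in migDC2, all called in Cre-negative libraries.

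Of the IFN-γ pathway, Socs1, Cd274, Irf8 and Serpina3g had a separated region, each called in Cre-negative libraries. These were 5 of the 237 regions of the IFN-γ-induced genes, beside 157 of 67835 over all regions (0.231%). At equal length 1 of 207 was separated in this direction, beside 0.214% over all regions. Socs1 encodes the feedback inhibitor of JAK kinases. Of its 7 regions, 5, 5 and 5 were called in Cre-positive and 7, 7 and 7 in Cre-negative libraries. It was among 39 of 7776 genes (0.502%) with fewer calls in every Cre-positive library. Its separated region lies 8703 bp from the gene (chromosome 16, 10774573 to 10775104) and was called in all 16 migratory and 0 cDC2 libraries, with 8 Cre-positive and 8 Cre-negative libraries among the 16. At equal length the counts overlapped, with 3, 5 and 5 in Cre-positive and 7, 6 and 4 in Cre-negative libraries. The Socs1 promoter region ranked at 99.3, 99.4 and 99.3 in Cre-positive and 99.3, 99.7 and 99.4 in Cre-negative libraries among regions called in all 6 (limma adjusted p = 0.974).

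Cd274 encodes PD-L1, the checkpoint ligand that IFN-γ induces on dendritic cells. Of 7 regions called in any cDC1 library, 6, 4 and 6 were called in Cre-positive and 7, 7 and 7 in Cre-negative libraries. Like Socs1, Cd274 was among the 39 of 7776 genes (0.502%) with fewer calls in every Cre-positive library. The separated region is in its gene body (chromosome 19, 29376420 to 29376824), with strength percentiles of 21.8, 41.7 and 11.6 in the Cre-negative lists, and it was called in all 16 migratory and 0 cDC2 libraries. At equal length the counts were 5, 4 and 5 in Cre-positive and 5, 6 and 5 in Cre-negative libraries, which overlap. The neighbouring gene Pdcd1lg2, which encodes PD-L2, had 1 separated region of the other direction: 2372 bp from the gene (29475300 to 29475695), it was called in the 3 Cre-positive libraries and in no other list of the floxed mice.

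Irf8, the factor cDC1 depend on and itself induced by IFN-γ, had 2 separated regions called in Cre-negative libraries. One lies 24368 bp before the gene (chromosome 8, 120711072 to 120711989) and was called in all 16 migratory libraries and in 3 cDC2 libraries, all of them Cre-negative. In the other subsets together it was called in 8 Cre-positive and 11 Cre-negative libraries of 11 each (exact conditional p = 0.1). The other lies in the gene body (120738698 to 120740129). The number of Irf8 regions called was 27, 17 and 22 in Cre-positive and 27, 23 and 23 in Cre-negative libraries, and 21, 17 and 18 against 20, 16 and 18 at equal length. Its promoter region ranked at 87.5, 88.2 and 87.5 in Cre-positive and 91.0, 93.2 and 89.7 in Cre-negative libraries among the regions called in all 6. All 3 Cre-positive values were below all 3 Cre-negative ones. Of 34953 regions ranked at equal length, 3.71% lay lower in every Cre-positive library and 4.79% higher. The test gave an effect of -0.20 ± 0.09 in cDC1 (limma adjusted p = 0.974) and -0.11 ± 0.039 over 5 subsets (limma adjusted p = 0.766). The start window of Irf8 (RefSeq GRCm38.p6, chr8:120736108-120736407, + strand) is shown for comparison with Irf1, since it holds 2 GAS matches, at bases 80 and 98, in capitals. The window of a second Irf8 start (120738389 to 120738688) held 0 matches of either motif.
Irf8: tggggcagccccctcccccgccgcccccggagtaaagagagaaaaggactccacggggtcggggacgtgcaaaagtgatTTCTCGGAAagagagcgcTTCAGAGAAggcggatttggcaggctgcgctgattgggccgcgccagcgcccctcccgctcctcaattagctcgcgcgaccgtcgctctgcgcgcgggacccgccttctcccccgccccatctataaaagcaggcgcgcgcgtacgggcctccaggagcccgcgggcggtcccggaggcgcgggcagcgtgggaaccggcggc

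Ifitm3, which encodes a membrane protein that blocks viral entry and was not in the list, had 6, 5 and 5 regions called in Cre-positive and 7, 7 and 7 in Cre-negative libraries. It was among the 39 of 7776 genes (0.502%) with fewer calls in every Cre-positive library. It had 6, 5 and 5 against 6, 7 and 6 at equal length, which overlap. Serpina3g, a protease inhibitor gene, had 4, 4 and 4 regions called in Cre-positive and 5, 4 and 5 in Cre-negative libraries. Gbp2, a guanylate-binding protein of host defence, had 2, 0 and 1 of its 2 regions called in Cre-positive and 1, 1 and 1 in Cre-negative libraries. The chemokine gene Cxcl9 had 3, 2 and 2 against 3, 2 and 2. Ciita, the master regulator of MHC class II, had 16, 13 and 13 regions called in Cre-positive and 17, 10 and 14 in Cre-negative libraries, and Nlrc5, its counterpart for MHC class I, had 7, 5 and 7 against 7, 6 and 7. At Serpina3g, Gbp2, Cxcl9, Ciita and Nlrc5 the counts of the genotypes overlapped. The genes that cDC1 depend on or are known by had calls that overlapped between genotypes. Batf3 had 12, 10 and 10 regions called in Cre-positive and 12, 10 and 12 in Cre-negative libraries. Cadm1, an adhesion molecule gene, had 31, 23 and 27 against 31, 23 and 28. Clec9a, the receptor for dead cells, had 4, 3 and 4 against 4, 4 and 3. Il12b, a subunit of interleukin-12, had 8, 8 and 8 against 8, 7 and 8. The receptor and kinase genes Ifngr2, Jak1 and Jak2 had no separated region, and their promoters had limma adjusted p-values of 0.974 to 0.993 in cDC1.

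**Figure D3:**
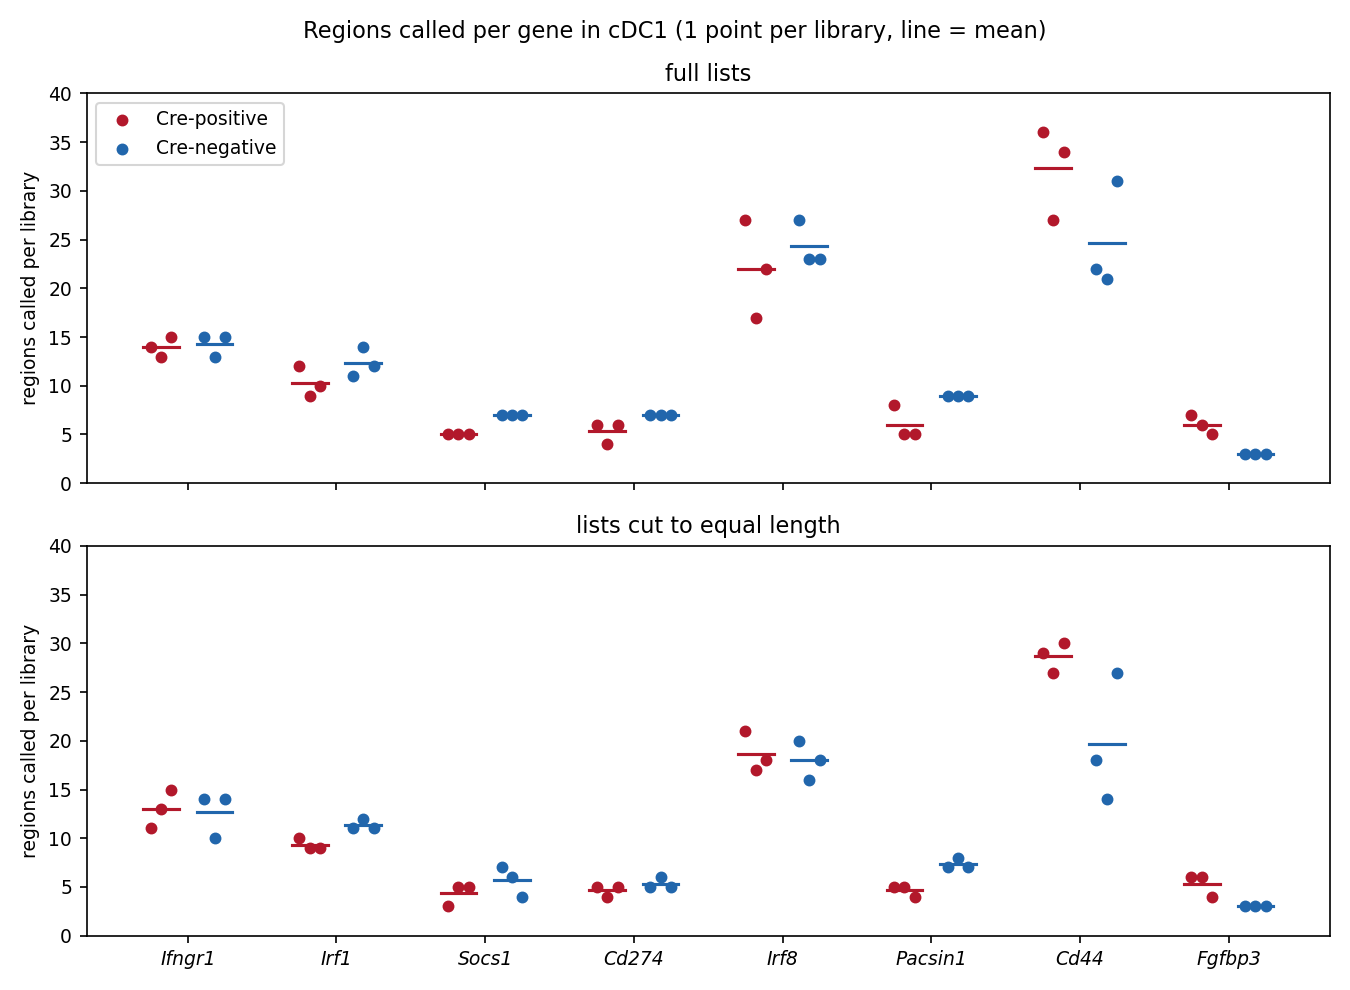
Number of regions called per library (y axis) at 8 genes in cDC1, with full lists above and lists of equal length below, 1 point per library and a line at the mean. Cre-positive points lie below Cre-negative ones at Socs1, Cd274 and Pacsin1 with full lists, and at Irf1 and Pacsin1 at equal length, and above them at Fgfbp3 in both.

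As a group, the 49 IFN-γ-induced genes were close to the background with full lists. Of 237 regions called in cDC1, 26 were found in more (11%) and 53 in fewer Cre-positive libraries (22.4%), beside 11.4% and 19.7% over all regions. At equal length 34 of 207 were found in more (16.4%) and 41 in fewer (19.8%), beside 18.4% and 14.2% over all regions. Without Cre-negative 2, 17 of 229 were found in more (7.42%) and 64 in fewer (27.9%), beside 7.98% and 24.8% over all regions. The share of the group's regions called was 90.7%, 64.6% and 76.8% in Cre-positive and 91.1%, 76.8% and 85.7% in Cre-negative libraries, which overlap. Of 134 regions of the group called in all 6 lists, 76 had an effect below 0 in cDC1 (56.7%, median -0.029), beside 49.8% and a median of 0.00 over all 40180. Over 5 subsets 53 of 87 were below 0 (60.9%), beside 52.8% of all regions, and 1 passed, the Irf1 promoter. The members were assigned to this list with earlier results of these data known, and the shares are given without a test.

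The other gene groups are read against the same background. The 16 genes of the receptor and its signalling had 23 regions in more (13.6%) and 36 in fewer (21.3%) Cre-positive libraries of 169. For each further list the number in more Cre-positive libraries stands before the number in fewer. MHC class I presentation had 2 (3.77%) and 10 (18.9%) of 53, and 5 and 5 of 45 at equal length. MHC class II presentation had 11 (9.32%) and 22 (18.6%) of 118, and 13 and 14 of 109 at equal length. DC maturation and migration had 34 (11.9%) and 53 (18.6%) of 285, and 39 and 41 of 241 at equal length. Its separated regions were at Cd274, at Pdcd1lg2 and at Cd86, which encodes a costimulatory ligand and had 21, 17 and 20 regions called in Cre-positive against 24, 17 and 21 in Cre-negative libraries. Markers of cDC1 had 46 (13.4%) and 64 (18.6%) of 344, and at equal length 63 (20.2%) and 35 (11.2%) of 312. Type I IFN genes had 7 (9.46%) and 10 (13.5%) of 74. Each of these lists had fewer calls in Cre-positive libraries with full lists, and at equal length the cDC1 markers, the type I IFN genes and the receptor and signalling genes had more.

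**Figure D4:**
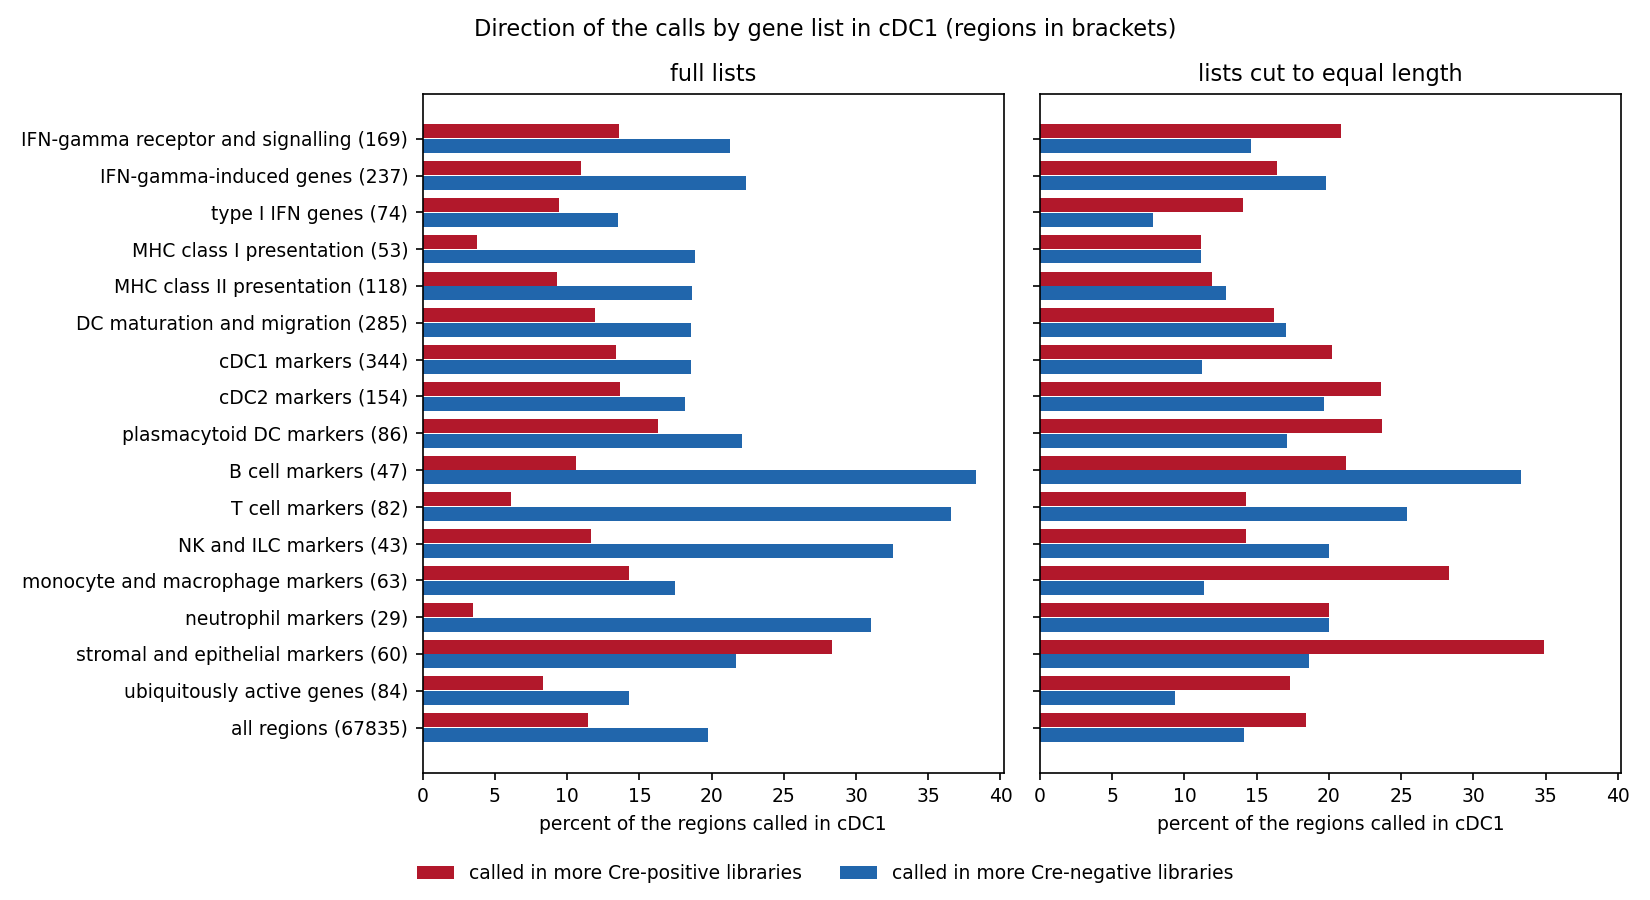
Percent of the regions of each gene list that were called in more Cre-positive (red) or more Cre-negative (blue) cDC1 libraries, with full lists on the left and lists of equal length on the right, and the number of regions with full lists in brackets. The 2 bars of most lists follow those of all regions in the lowest row, and T cell and B cell markers have the longest blue bars with full lists.

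Markers of other cells were called unevenly too. T cell markers had 5 regions in more (6.1%) and 30 in fewer (36.6%) Cre-positive libraries of 82, and 9 and 16 of 63 at equal length. B cell markers had 5 (10.6%) and 18 (38.3%) of 47, and 7 and 11 of 33 at equal length. NK and ILC markers had 5 (11.6%) and 14 (32.6%) of 43, and 5 and 7 of 35 at equal length. With full lists, 68, 39 and 54 T cell marker regions were called in Cre-positive and 68, 68 and 55 in Cre-negative libraries. For B cell markers the counts were 34, 20 and 29 against 37, 34 and 28, and for NK and ILC markers 38, 24 and 32 against 40, 31 and 34. The genotypes overlapped in each of these lists, and Cre-positive 2, the shortest list, had the fewest calls. Neutrophil markers had 1 (3.45%) and 9 (31.0%) of 29, and 5 and 5 of 25 at equal length. The list of monocytes and macrophages had 9 (14.3%) and 11 (17.5%) of 63, and 15 and 6 of 53 at equal length. Stromal and epithelial markers had 17 (28.3%) and 13 (21.7%) of 60, and 15 and 8 of 43 at equal length. Plasmacytoid DC markers had 14 (16.3%) and 19 (22.1%) of 86, and 18 and 13 of 76 at equal length. For cDC2 the counts were 21 (13.6%) and 28 (18.2%) of 154, and 30 and 25 of 127 at equal length. Genes active in every cell had 7 (8.33%) and 12 (14.3%) of 84, and 13 and 7 of 75 at equal length. By number of regions, the direction turned at equal length for the monocyte and macrophage, plasmacytoid DC, cDC2 and ubiquitous lists. It was level for neutrophils, and stayed for T cell, B cell and NK and ILC markers. Over all regions it turned too, from 11.4% in more and 19.7% in fewer to 18.4% and 14.2%. In the plasmacytoid DC list the mean difference in the share of libraries called stayed below 0, at -0.439 percentage points. The part of other cells in the results above was not tested. Separated regions at genes of other lineages were found at Csf1r, a growth factor receptor gene of macrophages, at Ebf1, a transcription factor of B cells, at Lyve1, a receptor of lymphatic endothelium, and at Pacsin1, an endocytic adaptor gene of plasmacytoid DC. Ebf1 had 3, 2 and 3 regions called in Cre-positive and 6, 6 and 4 in Cre-negative libraries, and 1, 2 and 2 against 4, 3 and 3 at equal length, so its genotypes were apart under both list lengths. Pacsin1 had 8, 5 and 5 of 9 regions called in Cre-positive and 9, 9 and 9 in Cre-negative libraries. At equal length it had 5, 5 and 4 against 7, 8 and 7, and its genotypes stayed apart too. Among genes with at least 3 regions, 0.502% of 7776 had fewer calls in every Cre-positive library with full lists. At equal length 0.846% of 6852 did.

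Among the named genes with a separated region called in Cre-positive cDC1, Cd44, the receptor for hyaluronan, had the most regions in that direction. Of 36 regions called in cDC1, 15 were called in more and 0 in fewer Cre-positive libraries. Over all 67835 regions called in cDC1, 11.4% were called in more and 19.7% in fewer. The Cd44 counts were 36, 27 and 34 in Cre-positive and 22, 21 and 31 in Cre-negative libraries, and they overlapped through Cre-negative 3. At equal length they were 29, 27 and 30 against 18, 14 and 27, where Cre-positive 2 and Cre-negative 3 had the same count. The separated region lies 6539 bp from the gene (chromosome 2, 102803962 to 102804601). The Cd44 promoter region ranked at 78.7, 79.0 and 85.6 in Cre-positive and 74.9, 73.4 and 82.4 in Cre-negative libraries among regions called in all 6 (limma adjusted p = 0.974). In the other subsets the mean count was 23 ± 1.7 in Cre-positive and 19.3 ± 2.1 in Cre-negative cDC2, and it was 29 ± 2.6 in Cre-positive and 28.3 ± 3.2 in Cre-negative migDC2 (SD, n = 3 each). In DN migDC it was 21.7 ± 0.58 in Cre-positive and 21.7 ± 3.2 in Cre-negative libraries (SD, n = 3 each), and in migDC1 20.5 ± 2.1 in Cre-positive and 16 ± 4.2 in Cre-negative libraries (SD, n = 2 each).

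Other named genes each had 1 separated region. Those called in Cre-positive libraries were at Ccdc167, at Plcb1, a phospholipase gene, at Cd9, a tetraspanin gene, at Ankrd6, at Pacs2, at Cd177 and at Adam19, a metalloprotease gene. Of these, the regions of Ccdc167, Plcb1 and Cd9 were separated at equal length too, as were those of Pdcd1lg2 and 1 of the 2 at Fgfbp3. Ankrd6 had 8 regions called in each Cre-positive and 7, 6 and 7 in the Cre-negative libraries. Like Fgfbp3, it was among 3 of 7776 genes (0.0386%) with more calls in every Cre-positive library. At equal length its counts overlapped, with 7, 8 and 8 in Cre-positive and 7, 6 and 7 in Cre-negative libraries. Those called in Cre-negative libraries were at Tnnt2, Dlx2, Rabgap1l, Cog4, Pi4k2a, Mpp7, Rnf217, and the sensor of double-stranded RNA Tlr3. The region at Rnf217 (chromosome 10, 31609074 to 31610023) was the single separated region that covers a gene's start window, with strength percentiles of 12.2, 61.7 and 11.5 in the Cre-negative lists. In the other subsets it was called in 10 Cre-positive and 8 Cre-negative libraries of 11 each. Pi4k2a and Mpp7 were the 2 genes whose regions called in Cre-negative libraries stayed separated at equal length.

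The surroundings of Itgax on chromosome 7, whose promoter drives the recombinase, were kept out of all counts above. The Cre transgene may add copies of this sequence. Within 100 kb of the gene (128129526 to 128150657), 39, 33 and 38 regions were called in Cre-positive and 27, 26 and 27 in Cre-negative cDC1. The means were 36.7 ± 3.2 and 26.7 ± 0.58 regions (SD, n = 3 each; exact permutation p = 0.1, the smallest the design can give). At equal length 28, 35 and 31 peaks lay in this window in Cre-positive and 17, 21 and 23 in Cre-negative libraries. Of 42 regions called there, 19 were found in more and 2 in fewer Cre-positive libraries. Within 500 kb, 3 separated regions were called in Cre-positive libraries, 2904 bp from Itgax, at Itgad and at Cox6a2, and 1 in Cre-negative libraries, at Pycard. In the other 4 subsets the mean was 28.4 ± 5.4 regions in Cre-positive and 19.7 ± 3.9 in Cre-negative libraries (SD, n = 11 each; mean difference within subsets 8.38, exact permutation p = 4.17e-05, the smallest it can give). Over the wider window of 500 kb the difference was within the spread of the libraries: 86 ± 9.5 regions were called in Cre-positive and 78 ± 3.0 in Cre-negative cDC1 (SD, n = 3 each; exact permutation p = 0.3). The median strength percentile there was 54.4 ± 5.2 in Cre-positive and 49.2 ± 4.3 in Cre-negative cDC1 (exact permutation p = 0.3), and in the other subsets its difference was 0.593 (exact permutation p = 0.785). Close to the gene single regions were far apart in strength at equal length. These regions were chosen after their values were seen. A region in the Itgax body (128131728 to 128134566) had strength percentiles of 97.7, 97.8 and 98.1 in Cre-positive and 78.3, 76.5 and 81.3 in Cre-negative cDC1. A second one (128138016 to 128138998) had 65.9, 67.6 and 73.0 in Cre-positive and 28, 7.0 and 23 in Cre-negative cDC1. In Itgad, a region at 128192964 to 128193686 had 66.2, 70.0 and 72.7 in Cre-positive and 22.4, 9.5 and 35.7 in Cre-negative cDC1. The Itgax promoter region had a mean of 96.0 ± 1.2 in Cre-positive and 87.4 ± 2.8 in Cre-negative cDC1 (SD, n = 3 each). Whether added copies give the calls around Itgax was not tested.

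**Figure D5:**
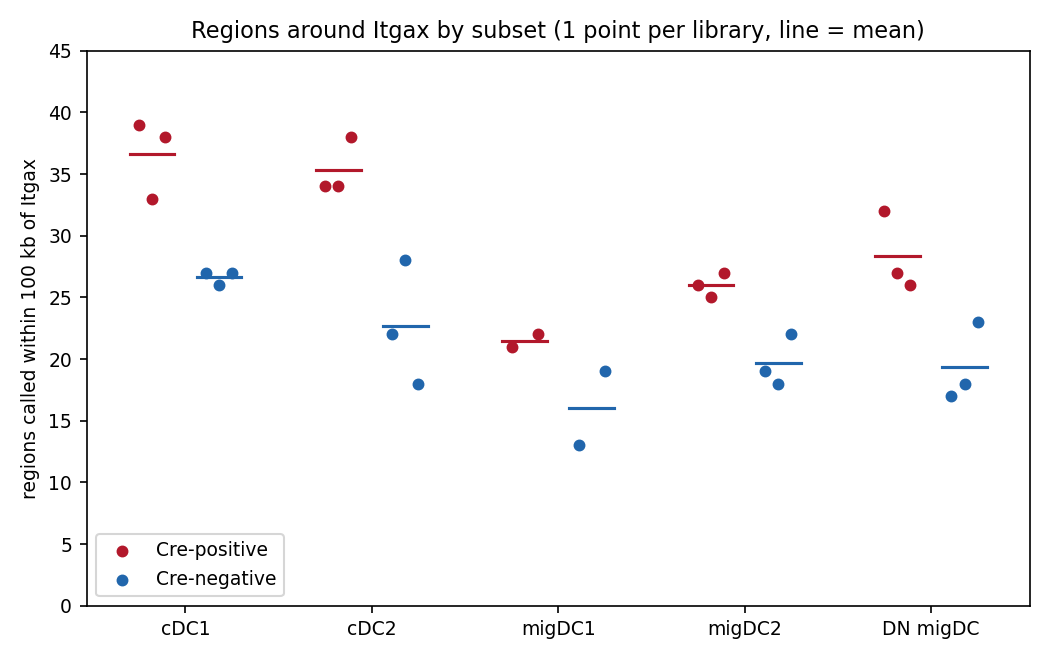
Number of regions called within 100 kb of Itgax (y axis) in each library of the 5 subsets, with a line at the mean and Cre-positive to the left of Cre-negative. In cDC1 the Cre-positive libraries have 33 to 39 regions and the Cre-negative ones 26 or 27, and the genotypes do not overlap in any subset.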

How the data were processed

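Omni-ATAC-seq libraries of sorted dendritic cells were deposited as 32 peak lists, 1 per library. Bowtie2, deepTools, Genrich and the build mm10 are listed in the submitters' processing notes. Their versions, the filters and any Tn5 shift are not stated there. The signal that the authors deposited for each peak starts just above 200 and was used to rank peaks within a list. The −log10 p of each peak, as deposited, broke ties where lists were cut to equal length.

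Consensus regions of at least 100 bp were covered by peaks of at least 3 lists, and a region was called where a peak overlapped 50% of either. A region belongs to a gene within 1000 bp of its ends (gene end), inside it (gene body) or within 50 kb (distal), from RefSeq GRCm38.p6. Autosomes were used, without 500 kb on either side of Itgax. Presence was compared by exact conditional and permutation tests. The rank test, added after the data were seen, used limma 3.58.1 in R 4.3.3 on normal scores of ranks, with the subset as a block and Benjamini-Hochberg adjustment at 0.05. Both were run on simulated data with independent libraries. Shared mice and lists of uneven length or peak width were not simulated. The members and the 16 gene lists were chosen with earlier results of these data known. Mx1 and Mx2 of 338 listed genes could not be matched. Named genes were the 10 with the most separated regions per direction, up to 4 per list and direction, and a fixed set of genes of the IFN-γ pathway and of cDC1. Regions that passed by rank are named besides. Some genes that this rule names are not reported here. Alternatives were list length, signal, overlap, consensus, chromosomes, the Itgax window and leaving out each library. Python 3.11.15, numpy 2.4.6, pandas 2.3.3 and scipy 1.17.1 were used.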

Additional observations from a re-analysis of the deposited data

Results flagged for a closer look

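In cDC1, 4 regions were called in 0 of 3 Cre-positive and 3 of 3 Cre-negative libraries, and in migDC1 they were called in 2 of 2 Cre-positive and 0 of 2 Cre-negative libraries. They start at position 28419966 on chromosome 2, distal to Ppp1r26, at 54821805 on chromosome 9, distal to Ireb2, at 46819851 on chromosome 11, in the body of Timd4, and at 61099012 on chromosome 18, distal to Csf1r. The genotypes went opposite ways in the 2 subsets, and this difference was not tested. In migDC1, with 2 against 2 libraries, 1343 regions were called in Cre-positive and 128 in Cre-negative libraries alone. The autosomal consensus regions numbered 88757. Of the regions separated in cDC1, 2 went the same way in migDC1, both called in Cre-negative libraries. The migDC1 library Cre-negative 1 had a short list of 44263 autosomal peaks. Cre-negative 2 held 59296, and the Cre-positive libraries held 57561 and 56611. The part of list length in these calls was not tested.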

How the results depend on the processing

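No paired analysis was possible because the labels give no replicate numbers that groups share. Regions called in Cre-positive cDC1 alone numbered 19, but 41 when 50% of the region had to be covered, 119 at equal length, 8 at a signal of at least 400, and 25 to 262 when 1 library was left out. Regions called in Cre-negative cDC1 alone numbered 157, but 61 at a signal of at least 400 and 166 to 2046 when 1 library was left out. At that signal 0 and 1 of them were the same as with full lists. Without 1 library the rule for a separated region is looser, so its counts can only rise. The 8 regions that passed by rank over 5 subsets were 5 at equal length, where 18038 regions could be tested, and 7 to 9 without 1 library. The 10 of the other 4 subsets were 0 by exact permutation and 6 to 10 without 1 library. In cDC1 alone 0 regions passed by rank, and 0 to 4 without 1 library. The effects at Irf1, Fgfbp3, Btaf1, Kif11 and Rasgrf2 passed in all 28 fits without 1 library, and at Irf1 they ranged from -0.25 to -0.23. The covered length and the similarity of libraries, neither past the threshold, changed sign. The difference in covered length, 0.179 Mb, was -4.07 without Cre-positive 1 and -4.55 without Cre-negative 2. The difference in similarity, -0.0104, was 0.0218 without Cre-positive 1. The number of peaks and the Itgax window kept their direction, and the presence test passed 0 regions under each alternative run. Leaving out 1 library moved the difference in peaks between -9928 and -727, in covered length between -4.55 and 3.31 Mb, in Jaccard similarity between -0.0238 and 0.0218, in the Itgax rank between 3.15 and 8.14 and in regions near Itgax between 8.83 and 11.8. The cause was not tested. Depth is unknown, so closed regions and those under a list's threshold cannot be told apart.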
